A study of Arabidopsis thaliana with 18 samples.

Results

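BGLU43 (AT3G18070) and BGLU47 (AT4G21760) are Arabidopsis thaliana genes for beta-glucosidases of glycoside hydrolase family 1. Each is read by 1 probe set, and together they are 2 of the 13350 genes that have a probe set assigned to a single gene on this array. They were chosen because both were lower in petioles kept in darkness than in petioles kept in white light, so their petiole values are given as a description, with no test. The blade arrays played no part in that choice, and the blade changes were tested.

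The plants were wild-type seedlings grown at 22 °C on rockwool for 19 days in continuous white light. One set then stayed in white light for 2 h (WL), another was kept dark for 2 h (D), and the last was given a pulse of far-red light and then kept dark for 2 h (FRD). RNA came from blades and, separately, from petioles of rosette leaves 3 and 4, on Affymetrix arrays, with 3 arrays in each of the 6 groups of tissue and light. The series describes the 3 as independent biological replicates, and their number limits the precision of every value below.

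Family 1 beta-glucosidases cut glucose from small molecules stored as glucosides, among them hormones, defence compounds and the alcohols from which lignin is built. BGLU47 belongs to a small branch with BGLU45 and BGLU46, enzymes known to release monolignols, the building blocks of lignin, from their glucosides. BGLU43 belongs to another branch with BGLU42 and BGLU44, and BGLU44 is known to act on beta-mannosides in vitro. Darkness and far-red light both move phytochrome towards its inactive form, and petioles are the part of the leaf that elongates in shade.

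Every value is a ratio: the signal of a probe set divided by the median of the 3 white-light arrays of the same tissue. A value of 1 is therefore the white-light level of that tissue, the level itself is unknown, and blades cannot be set against petioles in white light. For the same reason the tissue labels could not be checked against marker genes. In whole blades and petioles, fewer cells that express a gene and less RNA per cell cannot be told apart. Medians of all ratios on an array lay between 0.936 and 1.02, and no member value was missing.

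BGLU47 stood low in both kinds of petiole that had lost light. In white-light petioles its ratios were 0.775, 1 and 1.34 for replicates 1, 2 and 3. In dark petioles they were 0.276, 0.208 and 0.255, and after the far-red pulse 0.132, 0.137 and 0.216. All 6 petiole arrays without light lay below all 3 white-light arrays, and the dark and far-red arrays overlapped narrowly, since the highest far-red ratio of 0.216 exceeded the lowest dark ratio of 0.208.

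On the log2 scale BGLU47 averaged 0.02 ± 0.4 in white-light petioles, -2.03 ± 0.21 in dark petioles and -2.67 ± 0.4 after the pulse (SD, n = 3). The D minus WL difference was -2.05 ± 0.46 (SE of the fit over all 18 arrays), a ratio of 0.241, or 4.14-fold lower. The FRD minus WL difference was -2.69 ± 0.46, which is 6.43-fold lower. With the spread of the compared petiole groups alone, these errors were 0.259 and 0.324. The lowest white-light ratio was 2.81-fold above the highest dark ratio and 3.59-fold above the highest far-red ratio. The far-red and dark petioles differed by -0.64 ± 0.46. The folds depend on how low ratios are handled. With ratios floored at their 10th percentile over all arrays, D minus WL and FRD minus WL of BGLU47 were both -0.87. All its dark and far-red petiole arrays then sit at the floor, so this value is a cap set by the floor. With that percentile added before the log the differences were -0.98 and -1.14.

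BGLU43 was low in dark petioles too, but its white-light arrays were far apart. Its ratios in white-light petioles were 0.157, 1 and 1.86, an 11.9-fold range. In dark petioles they were 0.084, 0.103 and 0.0409. After the far-red pulse they were 0.313, 1.69 and 0.192, an 8.82-fold range. The dark arrays lay below all others, and the white-light and far-red arrays overlapped over most of their range.

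The mean log2 ratio of BGLU43 was -0.59 ± 1.86 in white-light petioles, -3.82 ± 0.7 in dark petioles and -1.1 ± 1.65 after the pulse (SD, n = 3). D minus WL came to -3.23 ± 0.86 (SE of the fit), which is 9.38-fold lower. The SE from the compared petiole groups alone was larger, at 1.15. The gap between the lowest white-light ratio and the highest dark ratio was only 1.52-fold. FRD minus WL was -0.51 ± 0.86. FRD minus D was 2.72 ± 0.86, a 6.6-fold higher level after the pulse than in darkness alone. Far-red and dark arrays did not overlap (gap 1.86-fold), but the dark arrays are those on which BGLU43 was chosen as low. With the same floor, D minus WL of BGLU43 was -0.87 and FRD minus D was 0.54, again capped because all its dark petiole arrays sit at the floor. With the same addition they were -1.14 and 0.85.

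**Figure D1:**
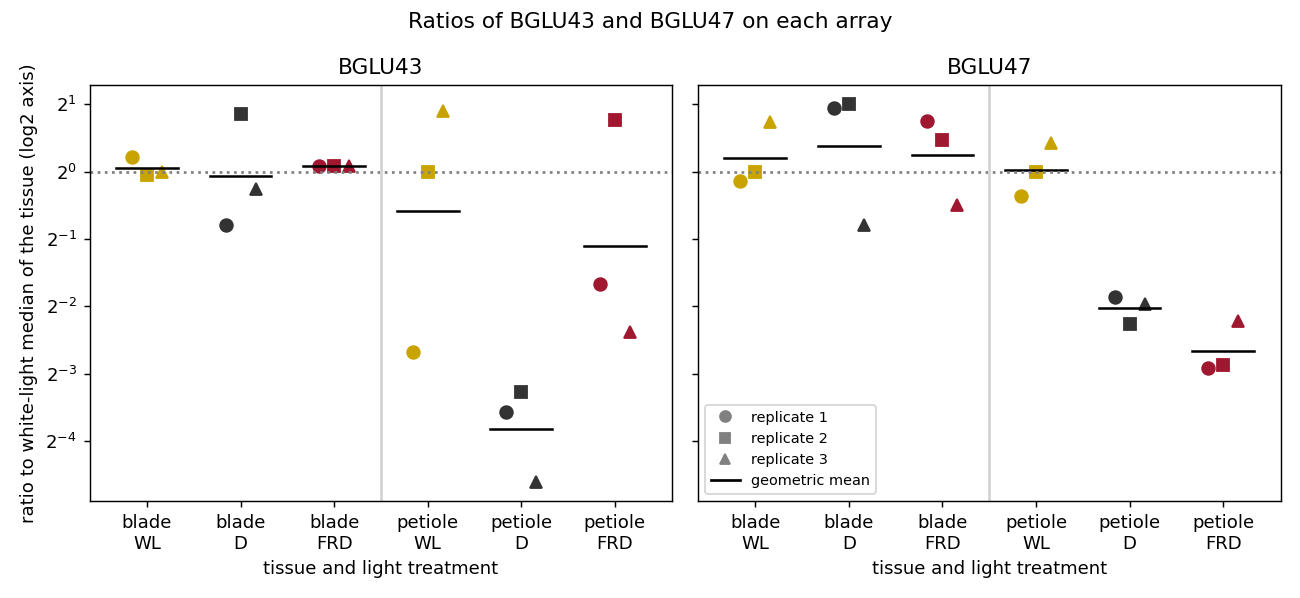
Ratio of BGLU43 (left) and BGLU47 (right) to the white-light median of the tissue on each of the 18 arrays, on a log2 axis, by tissue and light treatment; marker shapes give the replicate number and black lines the geometric mean of 3 arrays. BGLU47 lies at 0.132 to 0.276 in all 6 petiole arrays without light, while BGLU43 spans 0.157 to 1.86 in white-light petioles and 0.192 to 1.69 after the far-red pulse.

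Among the 22746 probe sets tested, the D minus WL difference of BGLU43 in petioles ranked 17 from the lowest and that of BGLU47 ranked 207. For FRD minus WL the order turned: BGLU47 ranked 63 from the lowest and BGLU43 ranked 3605. In the same petioles 5.6% of all probe sets were called between D and WL and 8.31% between FRD and WL (limma, Benjamini-Hochberg adjusted p under 0.05 over all probe sets). The D minus WL ranks restate the difference that chose the genes, and the shares are given as background. Nothing is read from the ranks or the shares for genes chosen on the petiole arrays. The D vs WL and FRD vs WL differences use the same 3 white-light arrays, and FRD vs D uses the dark arrays of D vs WL.

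In blades neither gene was called in any light comparison. BGLU47 had ratios of 0.908, 1 and 1.66 in white light, 1.92, 2.01 and 0.579 in darkness, and 1.68, 1.39 and 0.706 after the pulse, for replicates 1, 2 and 3 in turn. The groups overlapped in every comparison. D minus WL was 0.19 ± 0.46 (limma adjusted p = 0.871), with a 95% interval from -0.79 to 1.17. FRD minus WL was 0.04 ± 0.46 (limma adjusted p = 0.975; interval -0.94 to 1.02), and FRD minus D was -0.15 ± 0.46 (limma adjusted p = 0.998; interval -1.13 to 0.84).

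The blade result for BGLU47 rested partly on the arrays numbered 3. Blade D replicate 3 (0.579) and blade FRD replicate 3 (0.706) were the lowest arrays of their groups, while blade WL replicate 3 (1.66) was the highest of its group. In a fit without the 6 arrays numbered 3, BGLU47 was called higher in dark blades, by 1.04 ± 0.19 (limma adjusted p = 0.0216). Fits without the arrays of another number gave the opposite sign and no call. The difference was -0.26 without replicate 1 (limma adjusted p = 0.897) and -0.22 without replicate 2 (limma adjusted p = 0.929). Without blade D replicate 3 alone the difference was 0.78, and it was not called with any single array left out (limma adjusted p from 0.257 to 0.991).

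BGLU43 was steady in blades under white light and after the pulse and scattered in darkness. Its blade ratios were 1.16, 0.961 and 1 in white light, 0.58, 1.8 and 0.838 in darkness, and 1.06 on all 3 arrays after the pulse. D minus WL was -0.12 ± 0.86 (limma adjusted p = 0.961), with a 95% interval from -1.96 to 1.73. FRD minus WL was 0.03 ± 0.86 (limma adjusted p = 0.989; interval -1.82 to 1.88), and FRD minus D was 0.15 ± 0.86 (limma adjusted p = 0.998; interval -1.7 to 1.99). These intervals are wide because the fit takes its spread from all 6 groups and BGLU43 varied mostly in petioles. In a fit of the 9 blade arrays alone the SE was 0.372 for all 3 differences, and in a fit of the compared arrays it was 0.435 for D minus WL, 0.135 for FRD minus WL and 0.429 for FRD minus D. BGLU43 was not called in these fits either (limma adjusted p from 0.906 to 0.999).

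As background for these 6 blade tests, 11.2% of all probe sets were called between D and WL in blades, 11.2% between FRD and WL, and 0.651% between FRD and D.

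**Figure D2:**
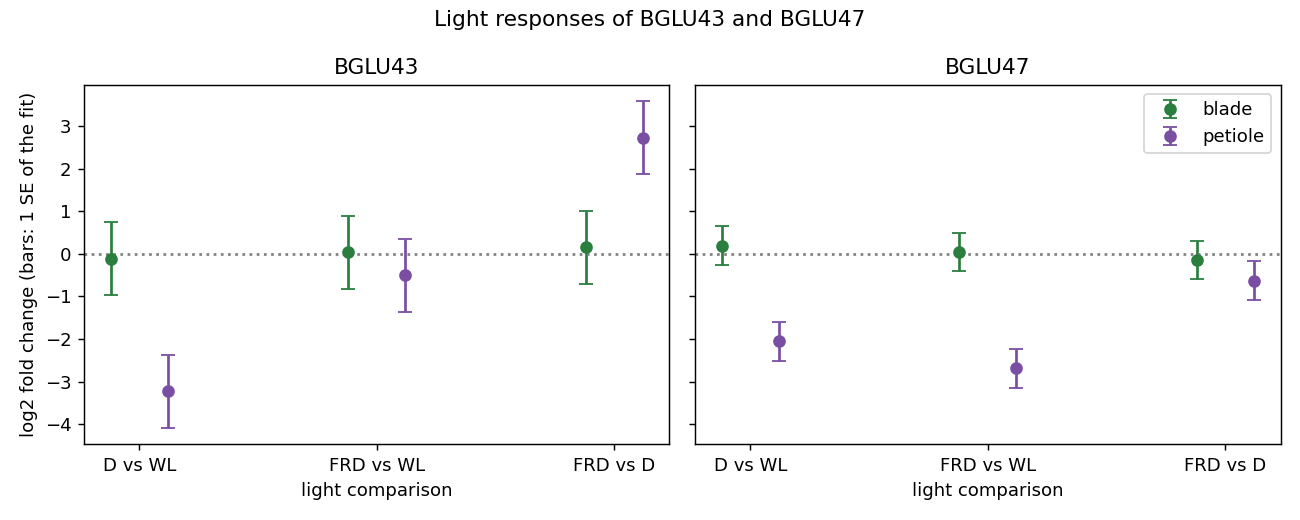
Log2 fold changes of BGLU43 (left) and BGLU47 (right) for the 3 light comparisons in blades (green) and petioles (purple); bars are 1 SE of the fit over 18 arrays. All 6 blade values lie between -0.15 and 0.19, while BGLU47 reaches -2.69 in petioles after the pulse and BGLU43 goes from -3.23 (D vs WL) to 2.72 (FRD vs D).

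The petiole change minus the blade change of BGLU47 was -2.24 ± 0.65 for D vs WL and -2.73 ± 0.65 for FRD vs WL. For BGLU43 it was -3.11 ± 1.21 for D vs WL, -0.54 ± 1.21 for FRD vs WL and 2.58 ± 1.21 for FRD vs D. These differences contain the petiole values that chose the genes, so they carry no test. Over all probe sets, limma called 0.0044% of such differences for D vs WL and 0.0352% for FRD vs WL.

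Ordered by mean log2 ratio, BGLU47 ran from petiole FRD to petiole D, petiole WL, blade WL, blade FRD and blade D, and the only neighbours whose arrays did not overlap were petiole D and petiole WL. For BGLU43 the order was petiole D, petiole FRD, petiole WL, blade D, blade WL and blade FRD, and only petiole D stood clear of the next group. Positions of blade against petiole in these orders are relative to each tissue's own white light.

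The array-to-array spread differed between the genes. Within petiole groups the SD of log2 ratios was 1.49 for BGLU43, higher than in 93.6% of probe sets, and 0.346 for BGLU47, near the median of 0.303 for all probe sets. Within blade groups it was 0.489 for BGLU43 and 0.75 for BGLU47, against a median of 0.326. Leaving out petiole WL replicate 1, the white-light array at 0.157, took the D minus WL difference of BGLU43 to -4.27, and leaving out petiole WL replicate 3 took it to -2.49. Without those same arrays FRD minus WL was -1.55 and 0.24. Without petiole FRD replicate 2, the far-red array at 1.69, FRD minus WL was -1.44 and FRD minus D was 1.79. The petiole differences of BGLU47 moved less, from -2.24 to -1.85 for D minus WL and from -2.91 to -2.48 for FRD minus WL over all 18 omissions.

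**Figure D3:**
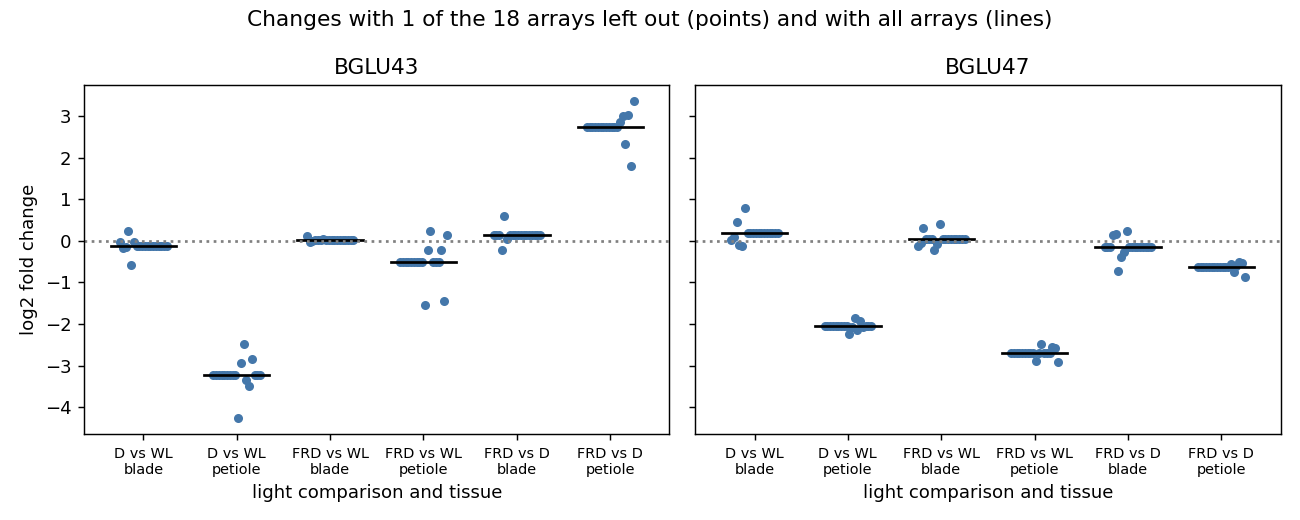
Log2 fold changes of BGLU43 (left) and BGLU47 (right) by light comparison and tissue, with all arrays (lines) and with each of the 18 arrays left out in turn (points). For BGLU43 in petioles, D vs WL runs from -4.27 to -2.49 and FRD vs WL crosses 0, from -1.55 to 0.24.

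BGLU44 (AT3G18080), the gene next to BGLU43 in the RefSeq annotation (TAIR10.1), fell in both tissues and under both treatments. Its ratios were 0.938, 1 and 1.05 in white-light blades, 0.361, 0.453 and 0.415 in dark blades and 0.434, 0.574 and 0.466 after the pulse. In petioles they were 1, 1.03 and 0.893 in white light, 0.469, 0.452 and 0.5 in darkness and 0.501, 0.37 and 0.613 after the pulse. No array without light reached any white-light array in either tissue.

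BGLU44 fell by 1.28 ± 0.17 log2 units in dark blades (limma adjusted p = 0.000397) and by 1.04 ± 0.17 in dark petioles (limma adjusted p = 0.00334). After the pulse it fell by 1.03 ± 0.17 in blades (limma adjusted p = 0.00156) and by 1.0 ± 0.17 in petioles (limma adjusted p = 0.00239). Its call held with each single array left out in all 4 comparisons, and quantile normalization ended it in all but D vs WL in blades. With 1 replicate number left out, BGLU44 stayed called in 2 of 3 fits for each blade comparison. For each petiole comparison it stayed called in 1 of 3. FRD and D differed by 0.26 in blades and 0.03 in petioles, neither called. BGLU42, an enzyme known from coumarin release in iron-starved roots, stayed between -0.24 and 0.18 in all 6 comparisons, with no call.

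BGLU45 and BGLU46, which lie side by side in the same annotation, varied widely and were not called in any comparison. In petioles BGLU45 stood at 0.25 ± 0.72 for D vs WL and 1.19 ± 0.72 for FRD vs WL, the opposite sign to BGLU47. BGLU46 was at -1.61 ± 1.13 and -1.17 ± 1.13 for the same comparisons, with dark petiole ratios of 1.13, 0.0699 and 0.238.

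Among the other 20 beta-glucosidase genes with a named probe set, the share called was near that of all probe sets in each comparison with white light. In blades 2 of 20 fell in darkness (BGLU44 and BGLU40) and 3 after the pulse (these and BGLU25), and none rose, where 1 and 0 were higher at an unadjusted p under 0.05. In petioles 1 fell in darkness (BGLU44) and 2 after the pulse (BGLU44 and BGLU40), and again none rose (0 and 1 at an unadjusted p under 0.05). Among all probe sets 4.47% fell and 6.7% rose in dark blades, 4.74% fell and 6.41% rose in blades after the pulse, 2.15% fell and 3.45% rose in dark petioles, and 3.87% fell and 4.44% rose in petioles after the pulse. With so few calls, no direction is read for the family. Between FRD and D limma called 0 of the 20 in either tissue, with 2 in blades and 1 in petioles at an unadjusted p under 0.05, against 0.651% and 1.09% called among all probe sets.

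The median change of the 20 genes was -0.17 in dark blades, -0.02 in blades after the pulse, -0.15 in dark petioles and -0.23 in petioles after the pulse. The medians over all probe sets were -0.02, -0.03, -0.0044 and 0.0037 for the same comparisons. BGLU40 fell by 0.94 ± 0.19 in dark blades (limma adjusted p = 0.00644), by 1.48 ± 0.19 in blades after the pulse (limma adjusted p = 0.000364) and by 1.03 ± 0.19 in petioles after it (limma adjusted p = 0.00433). Quantile normalization ended its calls in dark blades and in petioles. BGLU25 fell by 0.58 ± 0.17 in blades after the pulse (limma adjusted p = 0.049), and that call was lost with most single arrays left out, remaining in 3 of 18 fits. BGLU31 had a larger petiole difference than BGLU47 in darkness, -2.72 ± 1.21, but an adjusted p of 0.244 in limma.

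**Figure D4:**
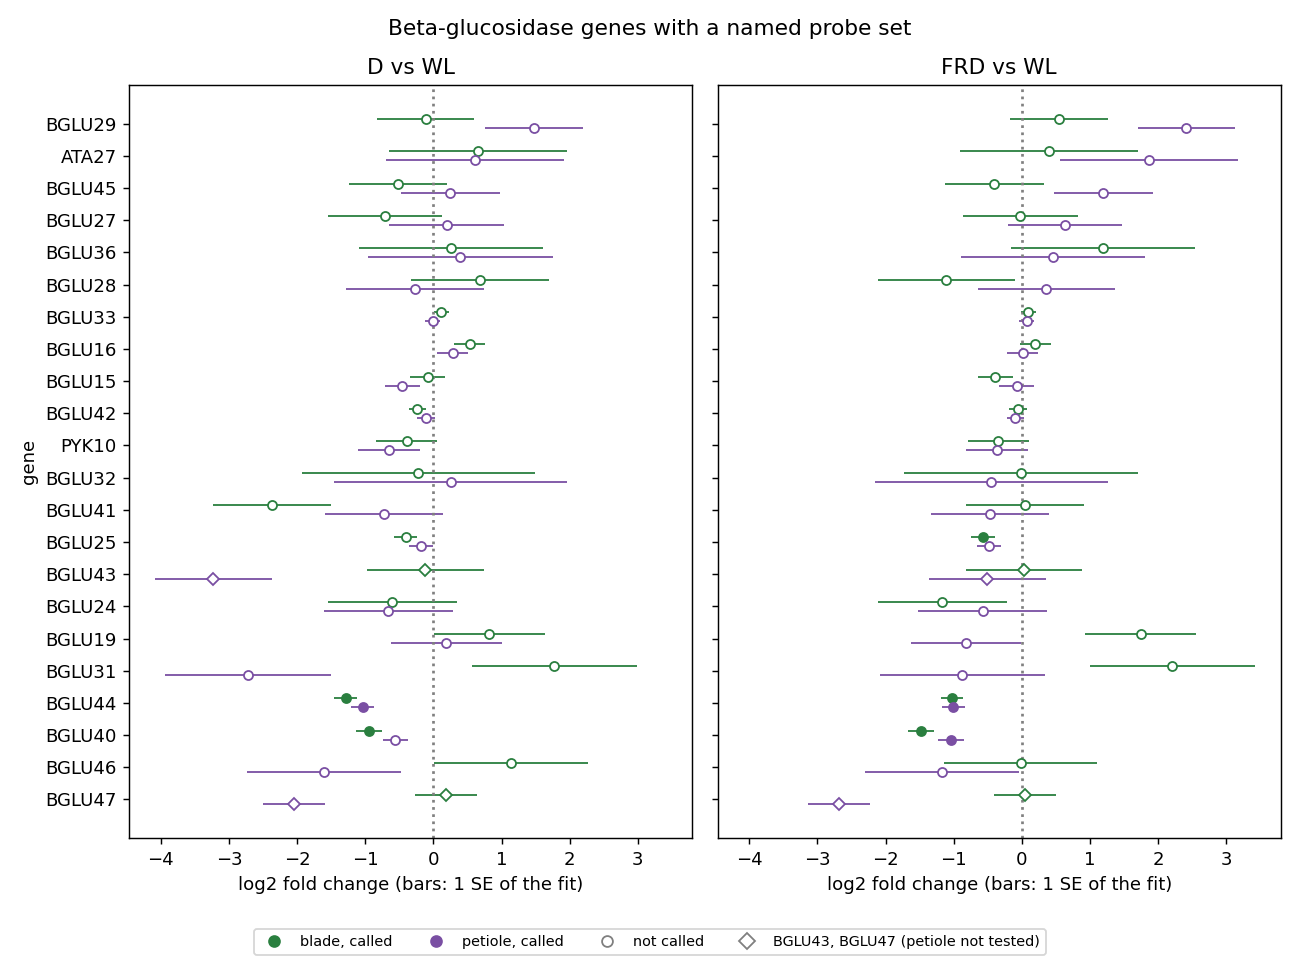
Log2 fold changes of the 22 beta-glucosidase genes with a named probe set for D vs WL (left) and FRD vs WL (right), in blades (green) and petioles (purple); bars are 1 SE of the fit, filled points were called (adjusted p under 0.05) and diamonds are BGLU43 and BGLU47. The filled points belong to BGLU44, BGLU40 and BGLU25 and are all below 0, and the petiole value of BGLU47 for FRD vs WL, -2.69, is the lowest in its panel.

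Monolignol glucosides, the known substrates of the relatives of BGLU47, are made by glucosyltransferases of the UGT72 family. Of 41 names of monolignol and lignin genes searched, 9 had a named probe set. UGT72E1, which glucosylates the aldehyde precursors of monolignols, rose in every comparison with white light. It rose by 1.42 ± 0.41 in dark blades (limma adjusted p = 0.0387), by 2.49 ± 0.41 in blades after the pulse (limma adjusted p = 0.00156), by 1.49 ± 0.41 in dark petioles (limma adjusted p = 0.0487) and by 1.81 ± 0.41 in petioles after the pulse (limma adjusted p = 0.0136). Its petiole ratios were 2.66 or above in 5 of the 6 arrays without light and 1.99 in the other, against 0.971 to 1.01 in white light. Leaving out single arrays ended the call in dark blades in 11 of 18 fits, in dark petioles in 15 of 18 and in petioles after the pulse without petiole FRD replicate 3 alone. Quantile normalization ended all but the call in blades after the pulse. UGT72E2 and UGT72E3, which glucosylate the alcohols themselves, were not called in any comparison, with petiole values of 1.05 ± 0.36 and -0.02 ± 0.44 for FRD vs WL.

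UGT72B1, which acts on phenolic pollutants and on monolignols, fell by 1.21 ± 0.32 in dark blades (limma adjusted p = 0.0262), by 2.01 ± 0.32 in blades after the pulse (limma adjusted p = 0.00133) and by 1.84 ± 0.32 in petioles after it (limma adjusted p = 0.00298). In dark petioles it stood at -0.94 ± 0.32 and was not called. Also lower in petioles after the pulse were UGT72B3, which fell by 0.82 ± 0.23 (limma adjusted p = 0.0441), and HCT, an acyltransferase early in the lignin pathway, which fell by 0.43 ± 0.1 (limma adjusted p = 0.0194). Quantile normalization ended the calls of UGT72B1, UGT72B3 and HCT. Omitting single arrays ended the call of UGT72B1 in dark blades in 4 of 18 fits (without WL replicate 1 or 3 or D replicate 2 or 3 of the blades), that of HCT in 4 (without WL replicate 2 or 3 or FRD replicate 1 or 2 of the petioles) and that of UGT72B3 in 11. CCR2, PRX52 and PRX72 were called in no comparison. In all, 1 of the 9 rose and 1 fell in each of the blade comparisons with white light, 1 rose and 0 fell in dark petioles (with 1 lower at an unadjusted p under 0.05 in limma), and 1 rose and 3 fell in petioles after the pulse. Among all probe sets 6.7% rose and 4.47% fell in dark blades, 6.41% and 4.74% in blades after the pulse, 3.45% and 2.15% in dark petioles, and 4.44% and 3.87% in petioles after the pulse. Between FRD and D limma called 0 of the 9, with 2 in blades and 3 in petioles at an unadjusted p under 0.05, against 0.651% and 1.09% called among all probe sets. The median change of the 9 genes was -0.21 in blades and -0.03 in petioles in darkness, and -0.21 and -0.02 after the pulse.

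The genes whose pattern was most like each member were sought by Pearson correlation of log2 ratios over the 18 arrays among 13510 other probe sets with 1 gene. These correlations describe the same arrays and include the light differences that chose the members. For BGLU43 the closest were AT5G51490 (r = 0.84), IKU2 (0.84), AT4G29450 (0.82), AT5G50360 (0.82) and AT5G52330 (0.81). IKU2, a receptor kinase known from seed growth, stood at -1.96 ± 0.68 in dark petioles against white light and 0.3 ± 0.68 after the pulse. The other 4 also had their low in dark petioles, from -2.09 to -1.65, with an SE from 0.43 (AT5G51490) to 1.32 (AT5G52330). All 5 were higher in FRD than in D petioles, by 1.36 to 2.26. These genes were picked for a pattern like that of BGLU43, so the shared pattern is no separate result. Over the 9 petiole arrays alone r ran from 0.83 to 0.9 for these genes, and over the 9 blade arrays from -0.0022 to 0.68.

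For BGLU47 the closest were AT5G04830 (r = 0.93), AT4G25150 (0.9), HVA22C (0.87), AT1G03960 (0.87) and AT3G23680 (0.87). AT4G25150 stood at -0.85 ± 0.22 in dark petioles and -0.82 ± 0.22 after the pulse. AT3G23680 was alike in size to BGLU47 in petioles, at -2.31 ± 0.75 in darkness and -2.85 ± 0.75 after the pulse. In blades AT3G23680 stood at 0.83 ± 0.75 for D vs WL and -0.9 ± 0.75 for FRD vs D, against 0.19 and -0.15 for BGLU47. AT5G04830 was also lowest in petiole FRD and next lowest in petiole D, with smaller differences from white light of -0.65 ± 0.11 and -0.51 ± 0.11 and slightly negative ones in blades (-0.09 for D vs WL and -0.17 for FRD vs WL), and HVA22C, of a family of stress-responsive membrane proteins, stood at -0.28 ± 0.11 in dark petioles and -0.41 ± 0.11 after the pulse. Over the petiole arrays alone r was 0.84 to 0.97, and over the blade arrays 0.35 to 0.62. BGLU43 and BGLU47 correlated with each other at 0.58 over 18 arrays, 0.34 within petioles and 0.13 within blades. Neither was among the 5 genes most like the other.

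**Figure D5:**
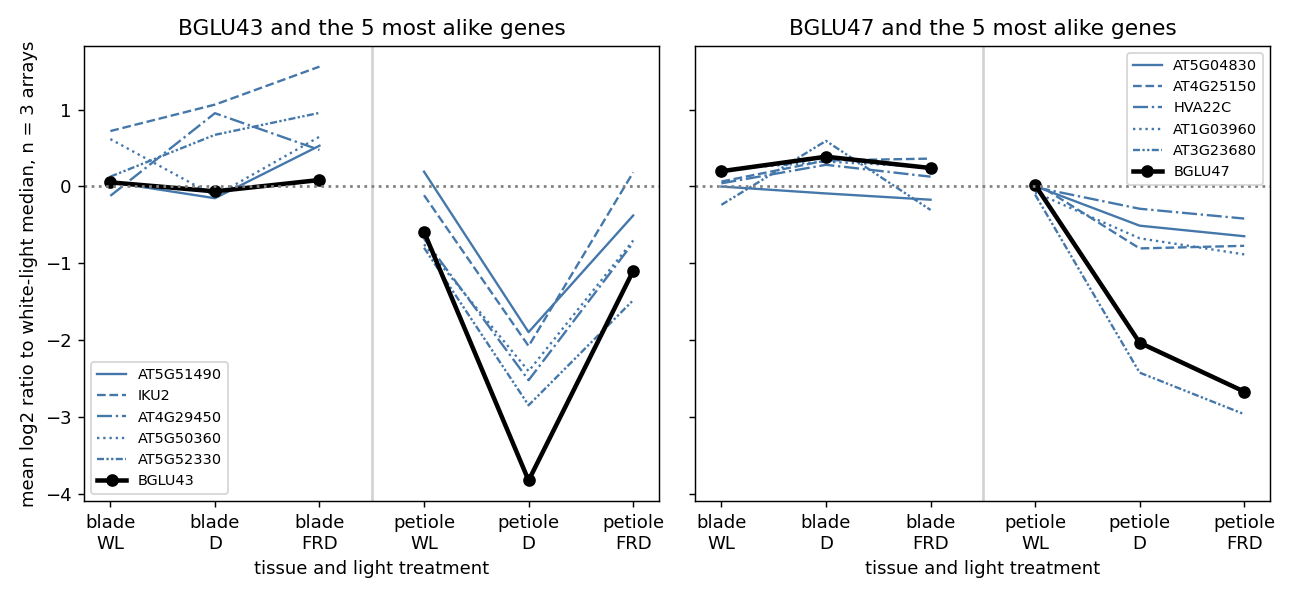
Mean log2 ratio (n = 3 arrays) in the 6 groups for BGLU43 (left) and BGLU47 (right), in black, with the 5 genes of highest correlation over 18 arrays in blue. BGLU43 and the 5 genes picked for correlation with it dip in dark petioles and are higher after the far-red pulse. BGLU47 and AT3G23680 are lowest after the pulse, at -2.67 and -2.96.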

How the data were processed

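The authors deposited 1 table of linear ratios for 22810 probe sets on 18 Affymetrix arrays. That these are ratios to the white-light median of each tissue is read from the deposited values: in each tissue, all 22810 probe sets had a white-light median of 1. Summarization, background correction and scaling before that are not given in the sources used here. Of the probe sets, 64 controls were left out and 22746 tested, and 13513 were assigned to 1 gene by the platform annotation, of which 13436 matched the RefSeq gene table (TAIR10.1).

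The fit used limma 3.58.1 (R 4.3.3) on log2 ratios without pseudocount or trend, 1 mean for each group (12 residual degrees of freedom, prior 1.46), two-sided, with Benjamini-Hochberg adjustment over all probe sets in each comparison. A call is an adjusted p under 0.05. Fold changes and standard errors come from this fit. It was run on simulated data with independent noise and 1 SD per probe set in all groups. That run did not check the standard errors, shared replicate variation or unequal spread between tissues.

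The members, lists and named-gene rule were chosen with earlier results of these data known. The beta-glucosidase and lignin lists were taken by symbol or synonym. Named genes were the members, the relatives BGLU42, BGLU44, BGLU45 and BGLU46, up to 4 called genes per list and comparison, UGT72E1 to UGT72E3 and the 5 most correlated genes, and BGLU31 was named after its value was seen. Alternatives covered scaling, pseudocount, floors, the variance model, array weights, the arrays fitted, the replicate block and omissions of arrays. Deviations from the group means were correlated over 0.1 in 7 of 45 same-numbered pairs of arrays in different groups, all of replicate 3 (0.111 to 0.149), and in 0 of 90 other pairs (medians 0.04 and -0.025). Deviations within a group sum to 0, so a positive correlation of same-numbered pairs pushes the other pairs below 0. The other pairs are therefore no independent baseline. The median of the same-numbered pairs was itself above 0, so shared variation by replicate number cannot be set aside. The main fit did not model it, and a fit with the replicate block is given below.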

Additional observations from a re-analysis of the deposited data

How the results depend on the processing

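No blade change of BGLU43 or BGLU47 was called under any alternative except that of BGLU47 in dark blades without replicate 3 (1.04, limma adjusted p = 0.0216). With the 75th percentiles aligned, which moves the median of all genes by -0.35 to -0.29 in comparisons with white light, FRD vs WL in blades was -0.28 for BGLU43 and -0.26 for BGLU47, and D vs WL was -0.14 for BGLU47. Quantile normalization gave -0.026 (D vs WL) and -0.13 (FRD vs WL) for BGLU47, and array weights gave 0.049 (D vs WL) and -0.0062 (FRD vs D) for BGLU43.

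Leaving out arrays or replicate numbers gave, for BGLU43 in blades, -0.63 to 0.33 (D vs WL), -0.026 to 0.11 (FRD vs WL) and -0.21 to 0.604 (FRD vs D), and for BGLU47 -0.26 to 1.04, -0.38 to 0.68 and -0.73 to 0.22. In petioles the ranges were -4.39 to -2.09, -1.55 to 0.88 and 1.79 to 3.36 for BGLU43, and -2.33 to -1.85, -2.91 to -2.48 and -0.86 to -0.42 for BGLU47.

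In petioles a pseudocount at the 10th percentile gave -1.14 (D vs WL) and 0.85 (FRD vs D) for BGLU43, and -0.98 (D vs WL) and -1.14 (FRD vs WL) for BGLU47. A floor there gave -0.87 and 0.54 for BGLU43, and -0.87, -0.87 and 0 (FRD vs D) for BGLU47. The dark arrays of both genes and the far-red arrays of BGLU47 then sit at the floor, which caps these differences. Array weights turned FRD vs WL of BGLU43 to 0.19.

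With the replicate block, D vs WL in petioles stayed at -3.23 for BGLU43 (SE 0.798) and -2.05 for BGLU47 (SE 0.492), since each number occurs once in every group, and no blade call of the members changed. The block moved the count of all probe sets called between D and WL in petioles from 1274 to 2039.

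Of 33 alternatives, the calls of BGLU44 held in 29 to 32 and those of BGLU40 in 28 to 33, depending on the comparison, and that of BGLU25 in 10. UGT72E1 held in 14 (dark blades), 8 (dark petioles), 31 and 29 (blades and petioles after the pulse), UGT72B1 in 23 (dark blades), 30 and 30, HCT in 23 and UGT72B3 in 12.

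Of all probe sets called, D vs WL in blades went from 2542 to 160 with quantile normalization, 5024 with aligned 75th percentiles and 447 with the 6 compared arrays, and FRD vs WL from 2537 to 187, 4643 and 631. In petioles D vs WL went from 1274 to 84, 2907 and 257, and FRD vs WL from 1891 to 183, 4385 and 590. Omitting single arrays lowered D vs WL to 1631 and FRD vs WL to 1690 in blades (without blade WL replicate 1). In petioles D vs WL fell to 593 to 716 without WL replicate 1 or 2 or D replicate 2 or 3, and FRD vs WL to 1152 to 1257 without WL replicate 1 or 2 or FRD replicate 2. FRD vs D fell from 148 to 92 in blades without FRD replicate 2, and from 249 to 123 to 137 in petioles without replicate 1 or 2 of D or FRD. Omitting a replicate number gave as few as 200, 225 and 25 in blades and 10, 159 and 9 in petioles (D vs WL, FRD vs WL, FRD vs D). Signal over background is unknown in ratios, so whether the lowest ratios of BGLU43 were above background could not be determined.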

Other observations

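BGLU29 was higher in all 3 petiole arrays after the far-red pulse (4.49 to 7.08) than in white light (0.583 to 2.49), at 2.41 ± 0.72 with a limma adjusted p of 0.054. In darkness BGLU31 was lower than in white light in petioles (-2.72 ± 1.21) and higher in blades (1.77 ± 1.21). Neither change was called. BGLU29 and BGLU31 were singled out here after their values were seen.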
